A study of Mus musculus with 20 samples.

Results

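The 10 genes described here are members of the BMP/SMAD pathway and the Id genes that it is known to control: the ligand gene Bmp4, the receptor genes Bmpr1a and Bmpr2, the SMAD genes Smad1, Smad5, Smad4 and Smad7, and the target genes Id1, Id2 and Id3. They were picked by symbol from the 34937 genes counted, with their difference between embryos with and without maternal G9a already known, so their values in that comparison are given as a description and without a test. All 10 were found, and 9 passed the filter on low counts that 11754 genes passed; Bmp4 did not. RNA was measured by single-embryo RNA-seq in whole 8 cell (8C) embryos collected at E2.5. The groups were 9 control embryos (Ehmt2Cntr) from Ehmt2F/+ mothers and 10 embryos (Ehmt2Mat) from Ehmt2F/- mothers. Ehmt2 encodes the histone methyltransferase G9a, F is a conditional allele, and all mothers carried Zp3-Cre, which recombines that allele in growing oocytes. All embryos were of a mixed background, only morphologically normal embryos were sequenced, and a further control, embryo 4, was not analysed here. The zygotic Ehmt2 genotype, set by both parents, was +/- in 3 and +/+ in 6 controls, and -/- in 5 and +/- in 5 Ehmt2Mat embryos.

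BMP ligands bind pairs of type I and type II receptors, which phosphorylate SMADs, SMAD1 and SMAD5 among them. These then enter the nucleus with the common partner SMAD4 and activate target genes, among which Id1, Id2 and Id3 are the best known, while SMAD7 inhibits the receptors. ID proteins have no DNA-binding region of their own and hold basic helix-loop-helix transcription factors, the E proteins in particular, away from DNA. In the preimplantation embryo BMP signals are known to act on the extraembryonic lineages, the trophectoderm and the primitive endoderm.

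Total counts lay between 8231646 and 30602434 per embryo, and 3 counts were worth between 0.0911 and 0.363 CPM (CPM is the count as a share of the library total, scaled by TMM). Values at or near that level rest on counting noise, which is the only error such a floor covers. Genes with a count numbered a median of 12848 in controls and 14487.5 in Ehmt2Mat embryos. Numbers of embryos with a count of a sparse gene are to be read beside that. Reads on Ehmt2 itself were present in every embryo. The 9 controls averaged 141 ± 59.7 CPM (SD) and the 10 Ehmt2Mat embryos 102 ± 32.7 CPM (log2 fold change -0.47, standard error 0.24, edgeR adjusted p = 0.233). Loss of maternal G9a is therefore given by the genotype of the mother and not by these counts. On the first principal component, control 10 (26.0) lay within the Ehmt2Mat range (-3.03 to 133), and Ehmt2Mat embryo 3, which had the lowest total count, was the farthest at 133. The labels name no mother or litter, and p-values treat embryos as independent. The groups came from different mothers, so an effect of mother or litter cannot be told apart from that of maternal G9a. In whole embryos, fewer cells of a type and less RNA per cell cannot be told apart.

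The 8C markers Dppa3, Pou5f1 and Tfap2c had counts in all 19 embryos, and the 8C list of 8 genes summed to 1653 to 3057 CPM in controls and 2450 to 3599 CPM in Ehmt2Mat embryos, although Cdx2 had a median of 0 in both groups. Of these markers Tfap2c was higher in Ehmt2Mat embryos (log2 fold change 0.75, standard error 0.20, edgeR adjusted p = 0.0183). The 6 oocyte genes summed to 32.1 to 267 CPM and 102 to 356 CPM. Of these, Oosp1 was higher in Ehmt2Mat embryos (medians 8.46 and 63.0 CPM, log2 fold change 2.70, standard error 0.54, edgeR adjusted p = 0.00277), and the other 5 did not pass. Of 7 cumulus or granulosa cell genes, 5 were at 0 in every embryo, and the list reached 4.97 CPM in controls and 38.2 CPM in Ehmt2Mat embryos. The 3 blood genes summed to at most 7.47 and 7.03 CPM with medians of 0.0769 and 2.24 CPM, and the haemoglobin gene Hbb-bs had counts in 1 of 9 controls and 9 of 10 Ehmt2Mat embryos. The 4 oviduct epithelium genes summed to 0.0904 to 386 CPM in controls and to 10.0 to 2840 CPM in Ehmt2Mat embryos. These sums came mostly from Ovgp1, the gene of an oviduct secretory glycoprotein. Foxj1, Pax8 and Krt7 had a control median of at most 0.0452 CPM and Ehmt2Mat medians of 0.567, 1.58 and 0.707 CPM. Their highest values were 1.69, 8.94 and 5.15 CPM in controls and 3.27, 27.4 and 10.7 CPM in Ehmt2Mat embryos. Foxj1 had counts in 2 of 9 controls and 7 of 10 Ehmt2Mat embryos. Among the 7 Ehmt2Mat embryos whose Ovgp1 did not exceed the highest control, Id3 was 3.43 to 32.7 CPM, with the lowest control at 36.5 CPM. That highest control, embryo 10, stood alone: the other 8 controls had at most 29.7 CPM of Ovgp1, and the 3 Ehmt2Mat embryos at or below that level had 11.3 to 32.7 CPM of Id3. Both cuts leave out Ehmt2Mat embryo 3, the only Ehmt2Mat embryo with Id3 above a control (54.8 CPM). Id3 was also chosen on this difference, so nothing is read from these ranges. The part of oviduct, oocyte and blood RNA in the differences was not tested.

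Id3 (ENSMUSG00000007872, GRCm38 chromosome 4, 136143497 to 136145755, plus strand) and Id2 (chromosome 12, 25093801 to 25096092, minus strand) have a RefSeq promoter entry on GRCm38.p6, as do 7 of the 10 members; Id1, Smad4 and Smad7 have none. The short stretches shown here are those parts of the 250 bases before the RefSeq start that hold letters known to be bound by SMADs or by E proteins, the factors upstream and downstream of the Id genes. The motifs searched on both strands were GTCT, the core of the SMAD-binding element, GGCGCC, a GC-rich motif of the SMADs that act for BMP, and CANNTG, the E-box of E proteins, and the matches printed do not overlap each other. Capitals mark the match and the flanks are in lower case, read 5′ to 3′ along the gene's strand.
Id3, chr4:136143646-136143669: cctcggcgtcAGACcagcctaagg
Id3, chr4:136143744-136143767: acccttggcgGTCTgttttgaata
Id2, chr12:25096309-25096332: ggccccctgGGCGCCcagcgcaca
Id2, chr12:25096274-25096297: ttgccacccCAGCTGggctctcgc
Id2, chr12:25096102-25096125: tgcacataaaAGACgccccgcccg
The Id3 window held 2 GTCT matches, the nearer one 65 bases before the start, and no GGCGCC or CANNTG. The Id2 window held 1 match of each. Among 32851 windows of the same length, 82.9% held GTCT, 66.2% held CANNTG and 9.59% held GGCGCC. GENCODE places the whole Id3 window and 64.4% of the Id2 window within untranslated exons, and the GGCGCC and CANNTG stretches of Id2 in an intron. These matches are letters in a window, and no binding was measured in these embryos.

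Among the Id genes, Id3 was abundant in control embryos and low in Ehmt2Mat embryos, whereas Id1 and Id2 were low in both and had no count in some embryos of each. The Id3 level was 95.9, 36.5, 194, 151, 370, 1021, 326, 48.9 and 128 CPM in controls 1 to 3 and 5 to 10. It was 20.6, 26.1, 54.8, 11.1, 5.97, 16.3, 11.3, 31.4, 3.43 and 32.7 CPM in Ehmt2Mat embryos 1 to 10. All Ehmt2Mat embryos lay below the control median of 151 CPM, 9 of 10 lay below every control and 7 of 9 controls lay above every Ehmt2Mat embryo. The overlap came from Ehmt2Mat embryo 3, at 54.8 CPM, which was above controls 2 and 9. Id3 averaged 264 ± 306 CPM over 9 controls (SD) and 21.4 ± 15.5 CPM over 10 Ehmt2Mat embryos, a ratio of 12.3 and a fitted log2 fold change of -3.63 with a standard error of 0.57. Control 7, at 1021 CPM, carried much of that mean: without it the 8 other controls averaged 169 ± 122 CPM, the ratio was 7.90 and the log2 fold change -2.99. Since these values chose the gene, no test is attached to them.

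The plot of the 3 Id genes shows the same values on a log scale. Id3 differed 27.98-fold between the lowest and highest control and 16.0-fold among Ehmt2Mat embryos, with counts of 808 to 13277 and 52 to 721 reads, so that this range does not rest on a few reads. Its SD on the log2(CPM + 1) scale was 1.48 in controls and 1.12 in Ehmt2Mat embryos, beside medians of 0.82 and 0.71 over all tested genes.

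**Figure D1:**
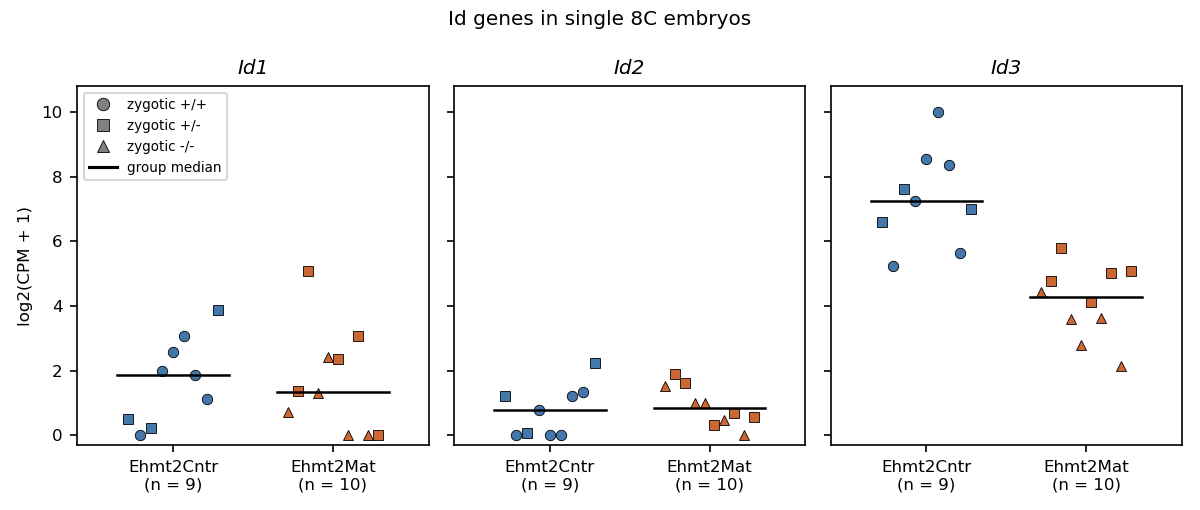
Levels of Id1, Id2 and Id3 as log2(CPM + 1) in each of 9 Ehmt2Cntr (blue) and 10 Ehmt2Mat (orange) embryos, with symbols for the zygotic genotype and a line at the group median. Id3 lies between 36.5 and 1021 CPM in controls and between 3.43 and 54.8 CPM in Ehmt2Mat embryos, while Id1 and Id2 overlap from 0 upward.

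Id1 (chromosome 2, 152736251 to 152737410) ranged from 0 to 13.8 CPM in controls (median 2.64) and from 0 to 32.6 CPM in Ehmt2Mat embryos (median 1.53). It had no count in 1 control and in 3 Ehmt2Mat embryos, and its highest values were in Ehmt2Mat embryo 3 and control 10, the embryos that stood apart on the first component. The means of 3.72 ± 4.50 and 5.21 ± 9.92 CPM gave a log2 fold change of 0.48 with a standard error of 1.14, which is more than its size, and the value was -0.78 without Ehmt2Mat embryo 3. Id2 ranged from 0 to 3.69 CPM in controls (median 0.723) and from 0 to 2.74 CPM in Ehmt2Mat embryos (median 0.806), with a log2 fold change of 0.09 and a standard error of 1.02. Neither difference exceeded its standard error. Of these 3 genes, Id3 was the one with counts in every embryo.

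Bmp4, the ligand, had counts in 3 of 19 embryos. Control 10 had 32 counts (1.02 CPM), Ehmt2Mat embryo 2 had 130 counts (7.26 CPM), Ehmt2Mat embryo 1 had 6 counts (0.556 CPM), and the other embryos had 0, which allows up to 0.0911 to 0.363 CPM depending on the embryo. With values in so few embryos Bmp4 was not fitted.

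The receptor genes had counts in every embryo, and their ranges overlapped between the groups. Bmpr1a, the type I receptor (chromosome 14, 34410734 to 34503341), had 64.8 to 210 CPM in controls (median 80.0) and 7.63 to 114 CPM in Ehmt2Mat embryos (median 66.1). Its means were 101 ± 48.6 and 63.2 ± 28.9 CPM, a log2 fold change of -0.68 with a standard error of 0.33. Of the Ehmt2Mat embryos, 4 lay below every control, the lowest being embryo 3 with 63 counts. Bmpr2, the type II receptor (chromosome 1, 59763400 to 59879014), had 4.58 to 44.1 CPM in controls (median 22.1) and 0.681 to 24.6 CPM in Ehmt2Mat embryos (median 9.80). The means of 26.1 ± 13.8 and 11.04 ± 8.12 CPM gave a log2 fold change of -1.24 with a standard error of 0.51, and 9 of 10 Ehmt2Mat embryos lay below the control median.

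Among the members, Smad1 and Smad5 encode SMADs that the BMP receptors phosphorylate, and both were sparse. Smad1 had 0 to 9.94 CPM in controls (median 1.21), with no count in 2, and 0 to 2.54 CPM in Ehmt2Mat embryos (median 0.0330), with no count in 5. Its log2 fold change was -2.37 with a standard error of 1.28. Smad5 had 0 to 12.2 CPM in controls (median 7.64) and 0 to 12.9 CPM in Ehmt2Mat embryos (median 2.17), with a log2 fold change of -0.82 and a standard error of 0.98. The highest Smad5 level was in an Ehmt2Mat embryo, number 10, although 9 of 10 lay below the control median.

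Smad4, the partner shared by all activated SMADs, was the most abundant pathway component among the members apart from Id3. Controls 1 to 3 and 5 to 10 had 137, 121, 138, 51.0, 140, 155, 72.4, 234 and 134 CPM. Ehmt2Mat embryos 1 to 10 had 79.6, 91.2, 4.12, 49.0, 95.4, 47.3, 74.3, 77.1, 65.0 and 79.7 CPM. All 10 Ehmt2Mat embryos lay below the control median of 137 CPM and 7 of 9 controls lay above all of them, while controls 5 and 8 fell within their range. The means were 131 ± 51.7 and 66.3 ± 26.9 CPM, a log2 fold change of -0.99 with a standard error of 0.34. Smad7, the inhibitory SMAD, spread widely in both groups, from 0.462 to 23.98 CPM in controls (median 1.21) and from 0.414 to 29.0 CPM in Ehmt2Mat embryos (median 3.04), with a log2 fold change of 0.01 and a standard error of 0.89.

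**Figure D2:**
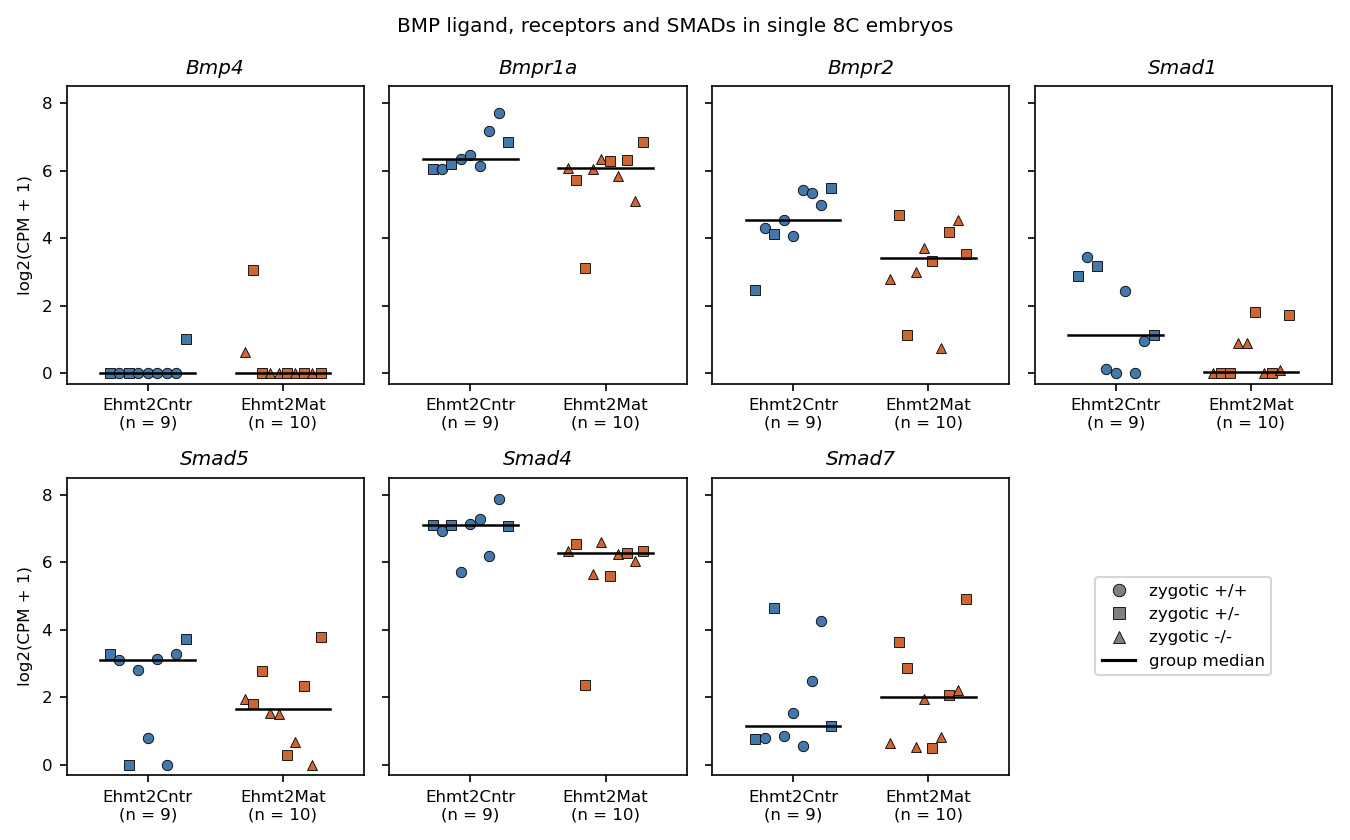
Levels of the ligand, receptor and SMAD genes as log2(CPM + 1) in each of 9 Ehmt2Cntr (blue) and 10 Ehmt2Mat (orange) embryos, with symbols for the zygotic genotype and a line at the group median. Bmpr1a, Bmpr2 and Smad4 have counts in every embryo, with Ehmt2Mat embryo 3 lowest for Bmpr1a (7.63 CPM) and Smad4 (4.12 CPM), while Bmp4 is at 0 in 16 of 19 embryos.

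By the rule that calls a gene in the fit across all genes (edgeR, adjusted p under 0.05), 1 of the 9 members counted as called, Id3, where 9.35% of all tested genes did, 4.98% with a lower and 4.37% with a higher level in Ehmt2Mat embryos. No member had CPM ranges that were apart between the groups, which 0.519% of the tested genes had, 0.179% with the lower level in Ehmt2Mat embryos. As the members were chosen on this comparison, these counts only describe the values that chose them, are no test of them, and nothing is read from the shares. The log2 fold change was above 0 for 3 members and below 0 for 6, with a median of -0.82 beside -0.04 over all tested genes (5600 above 0 and 6154 below). The sign was not stable for the 3 above 0, Id1, Id2 and Smad7, each of which was below 0 with single embryos left out (lowest -0.78, -0.08 and -0.82). The same descriptive count was 2, with Smad4, under DESeq2 (12.9% of all genes), without control 5 (8.12%), without Ehmt2Mat embryo 3 (8.67%) and without both embryos that stood apart (9.42%). Without the filter on low counts (5.67%) and with the embryo number as a block (4.03%) it was 1, Id3.

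Scaled by exon length, which compares genes within a group, Id3 led in controls at 147 ± 171 RPKM (SD, n = 9), followed by Smad4 at 35.4 ± 13.9 and Bmpr1a at 15.9 ± 7.65 RPKM. Id1 (3.21 ± 3.88), Bmpr2 (1.45 ± 0.768), Smad7 (1.29 ± 1.95), Smad5 (0.777 ± 0.600), Id2 (0.760 ± 0.952) and Smad1 (0.594 ± 0.665 RPKM) came next, with SDs larger than the steps between neighbours, and Bmp4 was last at 0.0509 RPKM. In Ehmt2Mat embryos Smad4 led at 17.9 ± 7.26 RPKM (SD, n = 10), above Id3 at 11.9 ± 8.65 and Bmpr1a at 9.95 ± 4.54 RPKM, levels whose spreads overlap. The cDNA amplification favours the 3′ ends of transcripts, so a scaling by the whole exon length is approximate.

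The zygotic Ehmt2 genotype gave a comparison that played no part in choosing the genes. Within Ehmt2Mat embryos, Id3 was 20.6, 11.1, 5.97, 11.3 and 3.43 CPM in the zygotic -/- embryos 1, 4, 5, 7 and 9, and 26.1, 54.8, 16.3, 31.4 and 32.7 CPM in the zygotic +/- embryos 2, 3, 6, 8 and 10. The highest -/- embryo lay above the lowest +/- embryo, and the other 4 -/- embryos lay below all +/- embryos. The means of 10.5 ± 6.58 and 32.2 ± 14.2 CPM (SD, n = 5 each) gave a log2 fold change of -1.61 with a standard error of 0.51 and a 95% interval of -2.70 to -0.53. This difference did not pass the correction over all genes (edgeR unadjusted p = 0.00635, adjusted p = 0.9997). Smad7 was 1.66 ± 1.48 CPM in -/- and 10.1 ± 11.4 CPM in +/- embryos, a log2 fold change of -2.60 with a standard error of 1.02 (edgeR unadjusted p = 0.0230, adjusted p = 0.9997).

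Smad1 and Bmp4 were not tested in this comparison. The other members tested had 95% intervals of the log2 fold change that include 0 and leave room for sizeable differences. The interval ran from -1.19 to 0.94 for Bmpr1a, from -2.12 to 1.35 for Bmpr2 and from -0.87 to 1.42 for Smad4. It ran from -6.13 to 0.54 for Id1, from -3.05 to 2.02 for Id2 and from -4.34 to 0.72 for Smad5. Of 12195 genes tested, 0 passed in edgeR and 270 had an unadjusted p under 0.05, among them 2 of the 8 members tested, while DESeq2 called 15 genes.

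Within controls, Id3 was 139 ± 50.3 CPM (SD, n = 3) in zygotic +/- and 326 ± 368 CPM (SD, n = 6) in +/+ embryos. All 3 +/- values, 95.9, 194 and 128 CPM, lay inside the +/+ range of 36.5 to 1021 CPM. The log2 fold change was -1.20 with a standard error of 0.83 and a 95% interval of -2.98 to 0.58 (edgeR adjusted p = 0.9998). Smad4 was 136 ± 1.63 and 129 ± 65.2 CPM, with a 95% interval of the log2 fold change of -0.80 to 0.97. None of the 9 members tested here had an unadjusted p under 0.05, 0 of 12646 genes passed in edgeR, 572 had an unadjusted p under 0.05, and DESeq2 called 107 genes.

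Set in order, the mean Id3 level was 326 CPM in +/+ controls, 139 CPM in +/- controls, 32.2 CPM in +/- Ehmt2Mat and 10.5 CPM in -/- Ehmt2Mat embryos. The first of these means rests on control 7: without it the 5 other +/+ controls averaged 186 ± 155 CPM, and the log2 fold change of +/- against +/+ controls was -0.40, in a range of -1.52 to -0.40 with single embryos left out. Neighbours that share the maternal group did not differ past the correction, as given above. Between the maternal groups at the same zygotic genotype, +/- controls (95.9 to 194 CPM) and +/- Ehmt2Mat embryos (16.3 to 54.8 CPM) were apart, as they were for Smad4 (134 to 138 and 4.12 to 91.2 CPM). This step between maternal groups is part of the comparison that chose the members, so its values describe them and are no test. In this comparison of 3 with 5 embryos, 2.81% of the tested genes lay apart with the lower level in Ehmt2Mat embryos. The fitted log2 fold change of Id3 between these +/- groups was -2.13 with a standard error of 0.42, against -3.63 with all embryos. With these 8 embryos 0 members passed, as did 0.00746% of all genes.

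**Figure D3:**
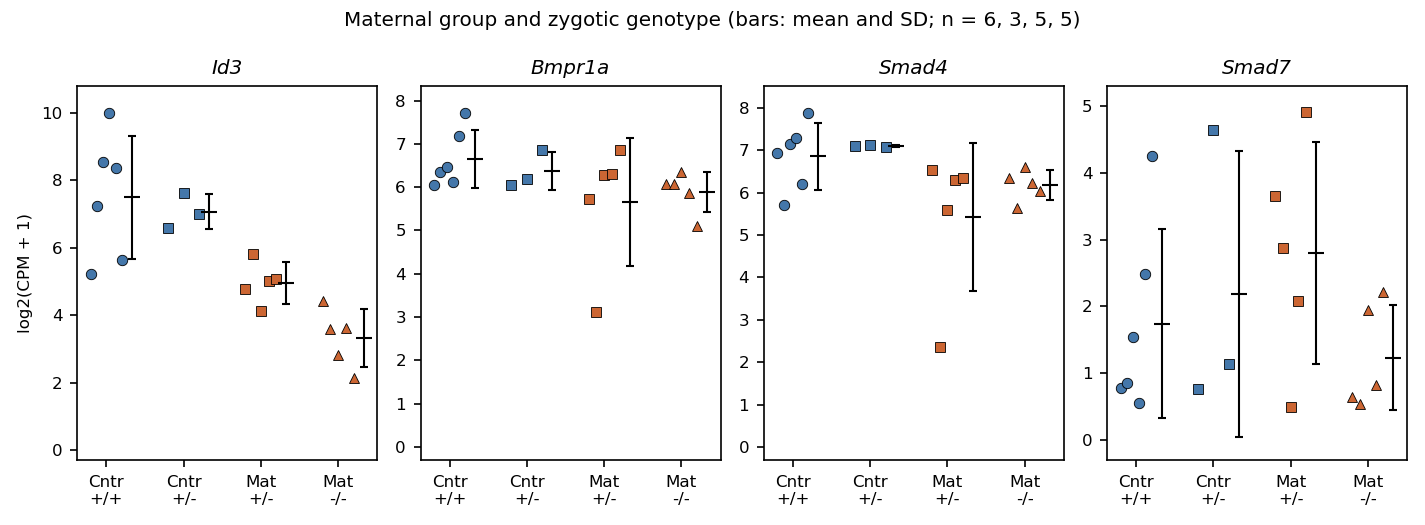
Levels of Id3, Bmpr1a, Smad4 and Smad7 as log2(CPM + 1) by maternal group (Cntr, Mat) and zygotic Ehmt2 genotype; points are embryos (n = 6, 3, 5 and 5) and bars give the mean and SD of the plotted values. The mean Id3 level is lower in each next group, at 326, 139, 32.2 and 10.5 CPM, while Bmpr1a and Smad4 overlap between zygotic genotypes of the same maternal group.

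Beyond the group difference, the correlation between members was near 0 at the median. However, Id1, Id2, Smad1, Smad5 and Smad7 had few counts in some embryos, and pairs of other genes were not computed. The deviations of log2 CPM from the group means had a median Pearson r of 0.04 over 36 pairs of members, of which 20 were above 0, across 19 embryos that share library and depth within each embryo. The closest pair was Bmpr1a and Smad4 (r = 0.76), with 0.21 in controls and 0.88 in Ehmt2Mat embryos, where embryo 3 was the lowest for both. Id1 and Id3 came next (r = 0.52), with 0.61 in controls and 0.45 in Ehmt2Mat embryos. They were followed by Bmpr1a with Bmpr2 (r = 0.46) and Bmpr2 with Smad4 (r = 0.41). For the latter pair r was -0.05 in controls and 0.54 in Ehmt2Mat embryos. With the receptor and SMAD genes, r of Id3 ran from -0.32 (Smad4) to 0.09 (Smad5). Several of these values joined opposite signs in controls and Ehmt2Mat embryos: -0.36 and 0.77 for Smad5, 0.30 and -0.25 for Bmpr2, and -0.17 and 0.35 for Smad7. The same held for Id2 (-0.32 and 0.61). These correlations describe 19 embryos and carry no test.

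**Figure D4:**
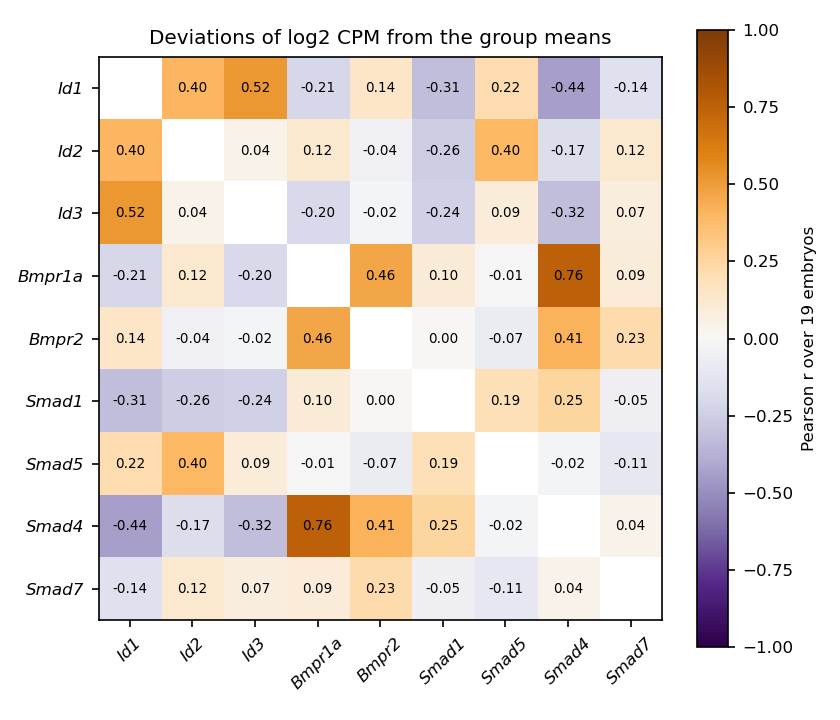
Pearson r between pairs of the 9 members that passed the filter, computed over 19 embryos from the deviations of log2 CPM from the mean of each embryo's group, with the colour scale from -1 (purple) to 1 (orange). The darkest cell is Bmpr1a with Smad4 (0.76), and in the cells of Id3 the highest value is with Id1 (0.52).

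Among 11754 tested genes, those whose deviations were most like Id3 over the 19 embryos were Crip2 (r = 0.82), which encodes a LIM-domain protein, Ywhaz (r = 0.78), a 14-3-3 protein gene, and Plxnb2 (r = 0.78), a semaphorin receptor gene. Those most like Id1 were 2310015K22Rik (r = 0.83), Tppp3 (r = 0.81) and Camsap3 (r = 0.79), the last 2 coding for microtubule-binding proteins. Those most like Id2 were Basp1 (r = 0.85), Apopt1 (r = 0.84) and Ldha (r = 0.79). As the highest of so many values they carry no test, and Id1 and Id2 each had no count in 4 of the 19 embryos.

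Of the other genes of the pathway, 4 of the 50 tested were lower in Ehmt2Mat embryos at an adjusted p under 0.05 and 0 were higher. The list held 96 symbols of ligands, receptors, other SMADs, signal transducers, inhibitors, targets and the E proteins and partners that ID proteins bind, of which 95 were found. The share called was 8.00%, beside 9.35% of all tested genes. The log2 fold change was above 0 for 13 and below 0 for 37 of the 50, with a median of -0.34 beside -0.04 over all tested genes. Over all 11754 tested genes it was above 0 for 5600 and below 0 for 6154. These signs cover only the genes that passed the filter on low counts. Listed genes below it, some with higher and some with lower means in Ehmt2Mat embryos, are not counted. The list was chosen with earlier results of these data known, so its signs carry no test.

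None of the 9 ligand and 9 receptor genes tested passed, with medians of -0.47 and -0.46. The type I BMP receptor gene Bmpr1b, named after its values were seen, lay the other way, at 0.811 ± 1.27 CPM in controls and 5.29 ± 4.71 CPM in Ehmt2Mat embryos (log2 fold change 2.69, standard error 1.06, edgeR adjusted p = 0.116). All 10 Ehmt2Mat embryos were above its control median and 6 were above every control. Of the 9 receptor genes, 3 had a log2 fold change above 0 and 6 below. Nearest the threshold was Tdgf1, also named after its values were seen, at 104 ± 53.6 CPM in controls and 38.4 ± 33.7 CPM in Ehmt2Mat embryos. Its log2 fold change was -1.44 (standard error 0.47, edgeR adjusted p = 0.0524). Among 9 inhibitors, 1 fell (11.1%, beside 9.35% of all tested genes): Fstl3, which encodes a secreted protein that binds activins and some BMPs. Fstl3 (ENSMUSG00000020325) averaged 102 ± 92.2 CPM over 9 controls (SD, range 20.2 to 329) and 20.4 ± 14.8 CPM over 10 Ehmt2Mat embryos (5.27 to 54.9), which gave a log2 fold change of -2.33 (standard error 0.45, edgeR adjusted p = 0.00238). All Ehmt2Mat embryos were below its control median.

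Among 5 other target genes, 1 fell (20%, beside 9.35% of all tested genes): Tbx3. This T-box transcription factor gene is known to be induced by BMP signals in several tissues. Tbx3 averaged 317 ± 168 CPM in controls (SD, range 91.2 to 607) and 92.8 ± 96.9 CPM in Ehmt2Mat embryos (6.65 to 328), with a log2 fold change of -1.77 (standard error 0.50, edgeR adjusted p = 0.0275). Without control 5 it missed the threshold (edgeR adjusted p = 0.0555).

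Among 12 signal transducers, all had a log2 fold change below 0 (median -0.51). Of these, 1 fell (8.33%, beside 9.35% of all tested genes): Xiap, whose protein links the BMP receptor to the kinase TAK1 and inhibits caspases. Xiap went from 114 ± 51.4 to 51.2 ± 21.7 CPM, a log2 fold change of -1.15 (standard error 0.32, edgeR adjusted p = 0.0227). It lies on the X chromosome, and the labels do not give the sex of the embryos. Among the 4 partners of ID proteins, 1 fell (25%, beside 9.35% of all tested genes): Tcf12, which encodes an E protein. A count of 1 gene in so small a set is not read as a result about its role. Tcf12 went from 40.5 ± 22.9 to 14.8 ± 9.78 CPM, a log2 fold change of -1.45 (standard error 0.40, edgeR adjusted p = 0.0234), and missed the threshold without control 9 (edgeR adjusted p = 0.0575). In both genes all 10 Ehmt2Mat embryos lay below the control median.

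The most abundant genes of the list apart from Tbx3 did not pass. The phosphatase gene Ppm1a had 737 ± 387 and 663 ± 222 CPM (log2 fold change -0.15, standard error 0.26, edgeR adjusted p = 0.799), and Trim33, whose protein acts on SMAD4, had 333 ± 113 and 220 ± 90.4 CPM (-0.60, standard error 0.26, adjusted p = 0.160). The SMAD corepressor gene Ski had 192 ± 122 and 115 ± 36.4 CPM (-0.74, standard error 0.30, edgeR adjusted p = 0.122), and without control 2 it passed (adjusted p = 0.0414). Smurf2, a ubiquitin ligase gene of the pathway, had 145 ± 47.1 and 151 ± 53.6 CPM (log2 fold change 0.06, standard error 0.22, edgeR adjusted p = 0.915). Fitted on zygotic +/- embryos alone, none of the 4 called genes passed, and with 3 against 5 embryos that fit called 1 gene in all.

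**Figure D5:**
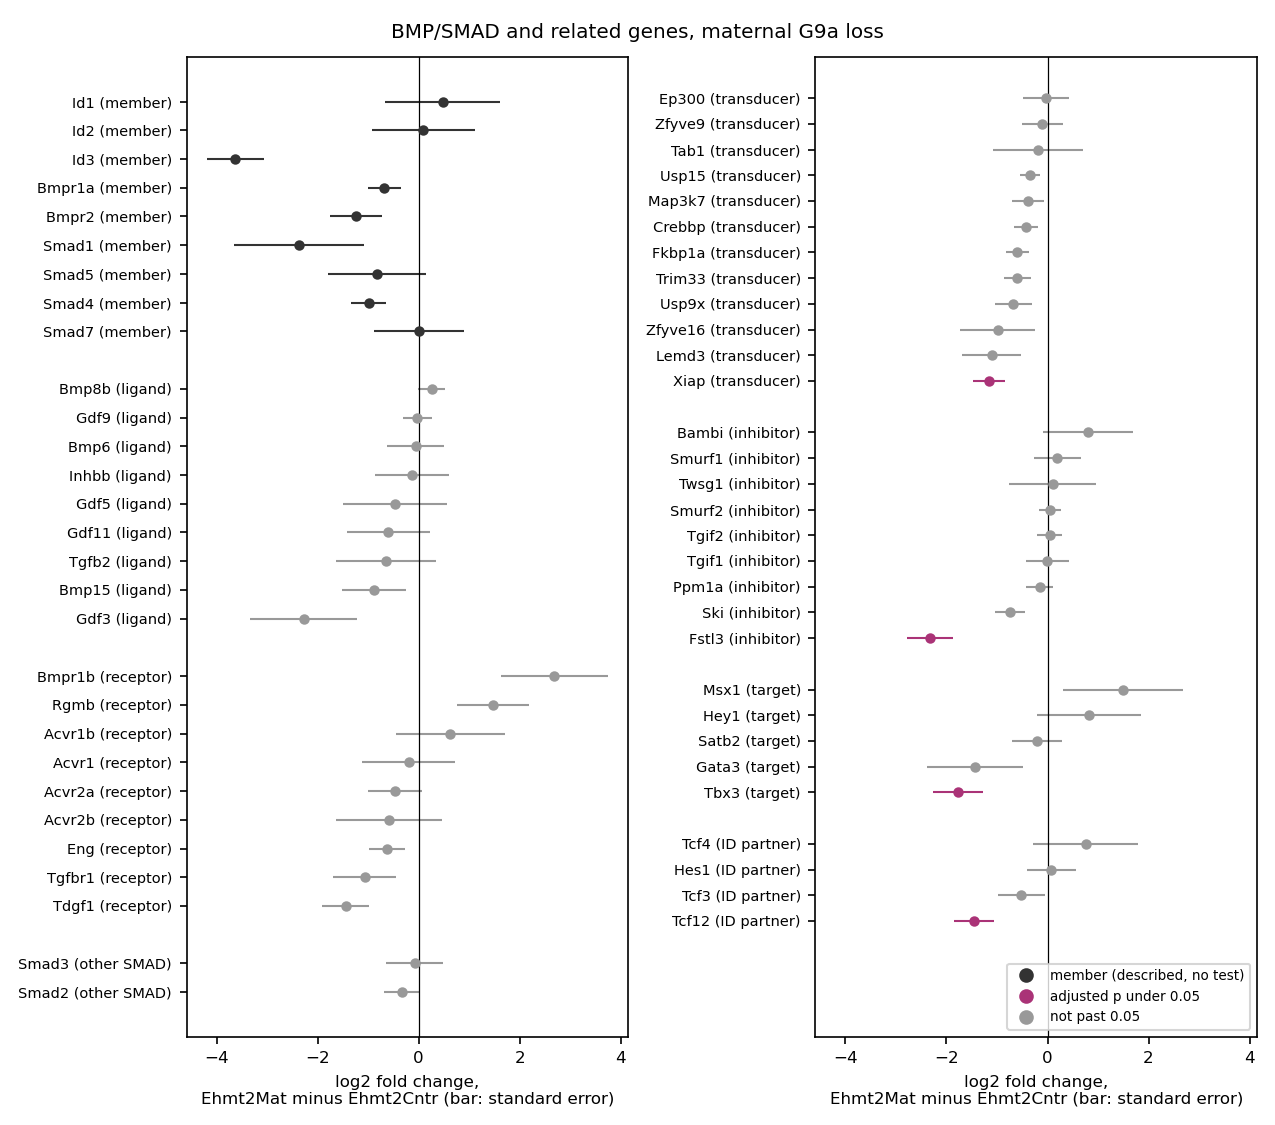
Log2 fold change of Ehmt2Mat against Ehmt2Cntr with its standard error for the 9 members that passed the filter (black, described without a test) and for 50 other genes of the pathway list, grouped by role; magenta marks an adjusted p under 0.05 in edgeR and grey the rest. Magenta marks Fstl3 (-2.33), Tbx3 (-1.77), Tcf12 (-1.45) and Xiap (-1.15), all left of 0. Id3, at -3.63, is shown as a description only.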

How the data were processed

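The authors deposited raw counts, 1 table per embryo, with no normalization. Per the file headers, featureCounts 1.5.0 counted reads on exons of Ensembl release 82 (GRCm38/mm10) with an overlap of at least 10 bases, assigning a read to every gene it overlaps, keeping reads flagged as multi-mapping and using no strand option. The submitters' processing notes name TopHat2. The cDNA was amplified by a protocol biased to 3′ ends and sequenced as single-end reads of 50 bases, on a HiSeq1500 in the sample records and a HiSeq4000 in the paper's methods. Gene symbols matched 34599 of 34937 IDs. Without strand, reads of a gene and its antisense partner cannot be told apart: Gm15217 and Gm17110, which overlap Bmp4 and Bmpr1a, had 2 and 20 counts in all. Of the 50-base windows of member transcripts, at most 3.77% (Bmpr1a) occur in another gene, and none of those of Id1, Id3, Smad1, Smad4 and Smad7.

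Differences were fitted in edgeR 4.0.16 (R 4.3.3) by its quasi-likelihood test after filterByExpr and TMM scaling, with Benjamini-Hochberg adjustment over all tested genes and a threshold of 0.05. No covariates were fitted. Standard errors are the log2 fold change divided by the root of the F statistic, and 95% intervals use the same degrees of freedom. Fitted fold changes use edgeR's prior count of 0.125, and log2(CPM + 1) was used for plots and SDs. RPKM are CPM divided by exon length in kilobases. No pair of embryos had identical counts. Scripts were tested on simulated data. Groups came from the labels, and the zygotic contrasts were separate fits of 10 Ehmt2Mat and of 9 control embryos.

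The members and the gene lists were chosen with earlier results of these data known. The genes named are all members, Ehmt2, every called gene of the pathway list and its 5 most abundant genes, and the 3 genes most like each Id gene. Bmpr1b and Tdgf1 were added after their values were seen. Alternatives were RLE factors, DESeq2 1.42.0, no filter on low counts, the embryo number as a replicate block, zygotic +/- embryos alone, counts thinned to the lowest total, 1 fit of all 19 embryos with 4 groups, and each embryo left out in turn. A fit without both embryos that stood apart was added after seeing the data.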

Additional observations from a re-analysis of the deposited data

Results flagged for a closer look

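In 5 of 20 sets of values (10 members in 2 groups, on the log2(CPM + 1) scale) the highest or lowest embryo was farther from its neighbour, as a share of the whole range, than the 95% limit of Dixon's test. Chance alone marks about 1 set in 20, and Bmp4 accounts for 2 of the 5 because nearly all of its values are 0. For Bmp4 these were control 10 (1.02 CPM, the others at 0, ratio 1) and Ehmt2Mat embryo 2 (7.26 CPM, next 0.556 CPM, ratio 0.791). For Bmpr1a it was Ehmt2Mat embryo 3 (7.63 CPM, next 33.4 CPM, ratio 0.534). For Smad4 it was the same embryo (4.12 CPM, next 47.3 CPM, ratio 0.765), which had the lowest total count and the highest Ovgp1 and Id1 levels, 2799 and 32.6 CPM. For Bmpr2 it was control 1 (4.58 CPM, next 15.8 CPM, ratio 0.528).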

How the results depend on the processing

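Of 651 alternative values, 615 kept their direction and side of the threshold, or stayed within the set tolerance. For members the tolerance was their pooled SD of log2(CPM + 1) within groups. By it Id1, Id2 and Smad7 count as kept even in the fits, given further on, where their sign turned. The 26 alternative values of the Id3 log2 fold change ran from -3.99 to -2.13, the last from zygotic +/- embryos alone. The number of all genes called was 1099, with 2038 from DESeq2, 649 with the replicate block and 1 in zygotic +/- embryos, and 884 to 1262 with each embryo left out. Members called numbered 2 with DESeq2 and 2 without control 10 and Ehmt2Mat embryo 3 (a choice made after seeing the data), 0 in zygotic +/- embryos, and 1 to 2 with each embryo left out. Called genes of the pathway list numbered 9 with DESeq2 (7 lower, 2 higher), 7 without the filter on low counts, 0 in zygotic +/- embryos and 3 to 5 with each embryo left out. The zygotic contrasts gave 15 genes with DESeq2 in Ehmt2Mat embryos and 107 in controls, and 0 to 1 in controls with each embryo left out, the 1 without control 10. Ppm1a turned to 0.22 in zygotic +/- embryos. Among the members, leaving out 1 embryo turned the sign of Id1 in 1 fit (without Ehmt2Mat embryo 3), of Id2 in 6 and of Smad7 in 9, with ranges of -0.78 to 1.077, -0.08 to 0.72 and -0.82 to 0.70, and of no other member. Id1 and Smad7 also turned to -0.18 and -0.13 without both embryos that stood apart, Id1 to -0.14 with the block, Smad7 to -0.07 with thinned counts and Id2 to -0.51 in zygotic +/- embryos. Of the pathway genes it turned values near 0, with ranges of -0.25 to 0.00598 for Ppm1a and -0.0513 to 0.17 for Smurf2. In the zygotic contrasts they were -0.41 to 0.17 for Bmpr1a and -0.0251 to 0.47 for Smad4 in Ehmt2Mat embryos, and -0.0788 to 0.34 for Smad4 and -2.18 to 2.31 for Smad7 in controls, the last sign resting on control 3. Some of these fits hold fewer embryos, and the cause of these changes was not tested.

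Over 9 shared embryo numbers the deviations of same-numbered embryos had a mean correlation of 0.01 (0 above 0.1, 0 best with their own number). No strong pattern shared by number was seen, and a weaker link was not tested. With the number as a replicate block, the log2 fold change of Id3 was -3.23, members called numbered 1 and pathway genes 5. Id1, Id2, Smad1, Smad5, Smad7 and Bmp4 had 6 or fewer counts in at least 1 embryo, so their low values rest on few reads. The part of depth in these low counts was not tested.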

Other observations

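Other ligand and regulator genes of the pathway list stayed below the filter on low counts, and the few given here were chosen after their values were seen. Bmp2 had no count in 10 of 10 Ehmt2Mat embryos and in 6 of 9 controls, where it reached 194 counts (11.1 CPM). Bmp7 had no count in 2 of 10 Ehmt2Mat embryos and in 7 of 9 controls, with at most 5.08 CPM in the former and 1.97 CPM in the latter. Id4, the remaining Id gene, had no count in 6 embryos of each group and at most 7.39 CPM. The BMP antagonist gene Nog had no count in 4 controls and 5 Ehmt2Mat embryos, with maxima of 11.01 and 1.34 CPM. Smad6, the other inhibitory SMAD gene, had no count in 7 controls and 9 Ehmt2Mat embryos. Higher maxima in Ehmt2Mat embryos were seen for Smad9 and Skil. Smad9 had no count in 6 controls and 5 Ehmt2Mat embryos, with maxima of 0.603 and 4.12 CPM. Skil had no count in 5 controls and 1 Ehmt2Mat embryo, with maxima of 0.833 and 6.20 CPM. Ehmt2Mat embryos had counts on more genes at large (median 14487.5, against 12848 in controls), and its part in these splits was not tested. None of these genes was tested between Ehmt2Mat and Ehmt2Cntr embryos.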
